A study of Homo sapiens with 2 samples.

Results

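RAB GTPases are small membrane switches that mark vesicles and organelles of the secretory and endocytic pathways, and TBC1D proteins carry the TBC domain that makes RABs hydrolyse GTP and so switches them off. A RAB in its GTP form recruits effectors such as tethers, motors and adaptors, exchange factors load it with GTP, and a TBC-domain protein ends the cycle. ATF1, a relative of CREB with a basic leucine zipper, binds DNA at the cAMP response element (CRE). Its peaks at the RAB and TBC1D genes are described here in HCT116, an established human line from a colon adenocarcinoma. Members were chosen by gene name, from names beginning RAB or TBC1D followed by a digit. Of 87 such names in the table, 4 were left out as antisense names or as pseudogenes in RefSeq. This left 83 members among 15064 listed peaks. Of the members, 43 are RAB GTPases and 29 are TBC1D proteins. Another 9 carry a RAB name but are effectors or regulators and not GTPases, and 2 are readthrough transcripts.

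The samples were 1 chromatin immunoprecipitation (ChIP) library of HCT116 cells given ATF1 with a 3xFlag tag, precipitated with an antibody against the tagged protein, and 1 input DNA library of HCT116 cells with no antibody. The peaks of the ChIP library were used, and no table of the input was analysed here. The sources used here do not state how the tagged ATF1 was delivered or how much of it the cells made. Neither sample has a replicate, so every value below describes 1 library and no test between conditions was possible. For each peak the authors give its position in hg38, its number of tags (sequenced reads, as whole numbers), a score, a fold enrichment over a background that is not specified, and the 1 gene it is named for. Each gene name occurs in the table on 1 line, so a further peak of a gene, at its start or elsewhere, would not appear under its name. The listed peaks had between 16 and 3300 tags and 3272654 in all, and the depth of the whole library is unknown.

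The sequences that carry the account are CRE matches in the promoters of members, taken from RefSeq on GRCh38.p14, the assembly of hg38, in windows of 300 bases from 250 before a gene's start to 50 after it. Sequences are written 5′ to 3′ on the strand of the gene. The full CRE is the palindrome TGACGTCA, and the lines below show it in capitals for the members that hold it, RAB11FIP3 and TBC1D32, and for RAB5IF and RAB25, which have no peak under their own name.
RAB11FIP3, chr16:425561-425600, plus strand: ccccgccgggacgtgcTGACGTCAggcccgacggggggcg
TBC1D32, chr6:121334756-121334795, minus strand: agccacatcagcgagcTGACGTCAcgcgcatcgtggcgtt
RAB5IF, chr20:36605611-36605650, plus strand: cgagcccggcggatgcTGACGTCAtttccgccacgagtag
RAB25, chr1:156061082-156061121, plus strand: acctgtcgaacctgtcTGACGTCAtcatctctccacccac

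The next lines show the palindrome with 1 mismatch, again in capitals, in promoters of other members. These are the remaining members with such a match whose named peak was a start peak of at least 10-fold. RAB3A, which holds such matches and has a start peak of 12.88-fold under another name, is not shown.
TBC1D22B, chr6:37257644-37257683, plus strand: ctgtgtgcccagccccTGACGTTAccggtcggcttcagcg
TBC1D23, chr3:100260989-100261028, plus strand: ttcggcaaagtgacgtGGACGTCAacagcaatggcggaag
RAB6A, chr11:73761238-73761277, minus strand: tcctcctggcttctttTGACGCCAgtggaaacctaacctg
TBC1D7, chr6:13328522-13328561, minus strand: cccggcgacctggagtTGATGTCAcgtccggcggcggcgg

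In the following lines capitals mark the 5-base core of the CRE, TGACG or CGTCA on the opposite strand, in strongly enriched genes whose windows hold no closer match to the palindrome.
RAB21, chr12:71754843-71754882, plus strand: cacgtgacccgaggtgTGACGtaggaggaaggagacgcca
RAB5A, chr3:19947067-19947106, plus strand: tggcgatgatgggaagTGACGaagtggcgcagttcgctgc
RAB8A, chr19:16111775-16111814, plus strand: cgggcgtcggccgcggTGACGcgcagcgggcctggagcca
RAB8B, chr15:63189424-63189463, plus strand: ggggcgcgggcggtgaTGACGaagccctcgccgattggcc

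The whole windows are printed for the members with the highest fold enrichment. That of TBC1D22A (chr22:46762400-46762699, plus strand) holds the core, in capitals, and that of RAB3GAP2 (chr1:220272404-220272703, minus strand) holds none of the motifs searched.
TBC1D22A: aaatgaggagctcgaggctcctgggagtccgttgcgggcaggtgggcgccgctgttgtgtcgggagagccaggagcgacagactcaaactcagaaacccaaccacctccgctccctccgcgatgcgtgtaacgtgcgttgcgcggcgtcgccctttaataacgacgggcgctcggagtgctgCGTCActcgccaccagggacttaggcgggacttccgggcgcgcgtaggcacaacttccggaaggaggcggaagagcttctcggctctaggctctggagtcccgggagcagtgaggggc
RAB3GAP2: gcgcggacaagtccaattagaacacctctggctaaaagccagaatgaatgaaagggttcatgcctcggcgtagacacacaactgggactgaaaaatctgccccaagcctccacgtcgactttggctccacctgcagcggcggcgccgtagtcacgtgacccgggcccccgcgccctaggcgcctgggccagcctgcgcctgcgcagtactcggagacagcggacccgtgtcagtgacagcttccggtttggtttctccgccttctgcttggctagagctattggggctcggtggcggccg

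Most genes of the family had a listed ATF1 peak, as did most protein-coding genes. RefSeq holds 118 protein-coding genes with such names, and 82 of these were listed (69.5%, exact 95% binomial interval 60.3 to 77.6%). The share over all 19974 protein-coding genes was 60.8%, which the interval includes near its lower end. A peak whose summit lay within 1 kb of a gene's start is called a start peak here. Counts over family genes take such a peak whichever gene it was named for. In counts over members or listed peaks, and in motif shares of genes with a start peak, only the peak named for the gene is taken. Where RefSeq's promoter table gave no start, the outer ends of the gene were used instead. Start peaks were present at 63 of the 118 family genes (53.4%, interval 44.0 to 62.6%), beside 48.2% of all protein-coding genes, and the interval includes that value. With multi-copy genes left out of the family, 82 of 104 genes were listed (78.8%, interval 69.7 to 86.2%) and 63 of 104 had a start peak (60.6%, interval 50.5 to 70.0%). These intervals lie above the same 60.8% and 48.2%, from which no multi-copy genes were left out. The intervals on shares and on tags cover counting error only.

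The members' median fold enrichment was 6.69 (quartiles 4.98 and 10.1, range 3.04 to 29.86), beside 6.97 (quartiles 5.20 and 9.76) over all peaks. They had a median of 180 tags, beside 162 over all peaks, and a median length of 1600 bp, beside 1551 bp. Peaks of at least 10-fold were found for 22 of the 83 members (26.5%, interval 17.4 to 37.3%), beside 23.9% of all peaks, a share near the background. At the low end, 22 members lay under 5-fold (26.5%, beside 22.5% of all peaks). Of all members, 53 had a peak that the authors class as exonic, 19 an intronic, 10 an upstream and 1 a downstream one. The exonic share was 63.9% (interval 52.6 to 74.1%), beside 43.5% of all peaks and 52.0% of peaks named for protein-coding genes. The intronic share was 22.9%, beside 33.9% and 26.8%. The upstream share was 12.05%, beside 19.9% of all peaks, and the downstream share 1.205%, beside 2.702%.

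**Figure D1:**
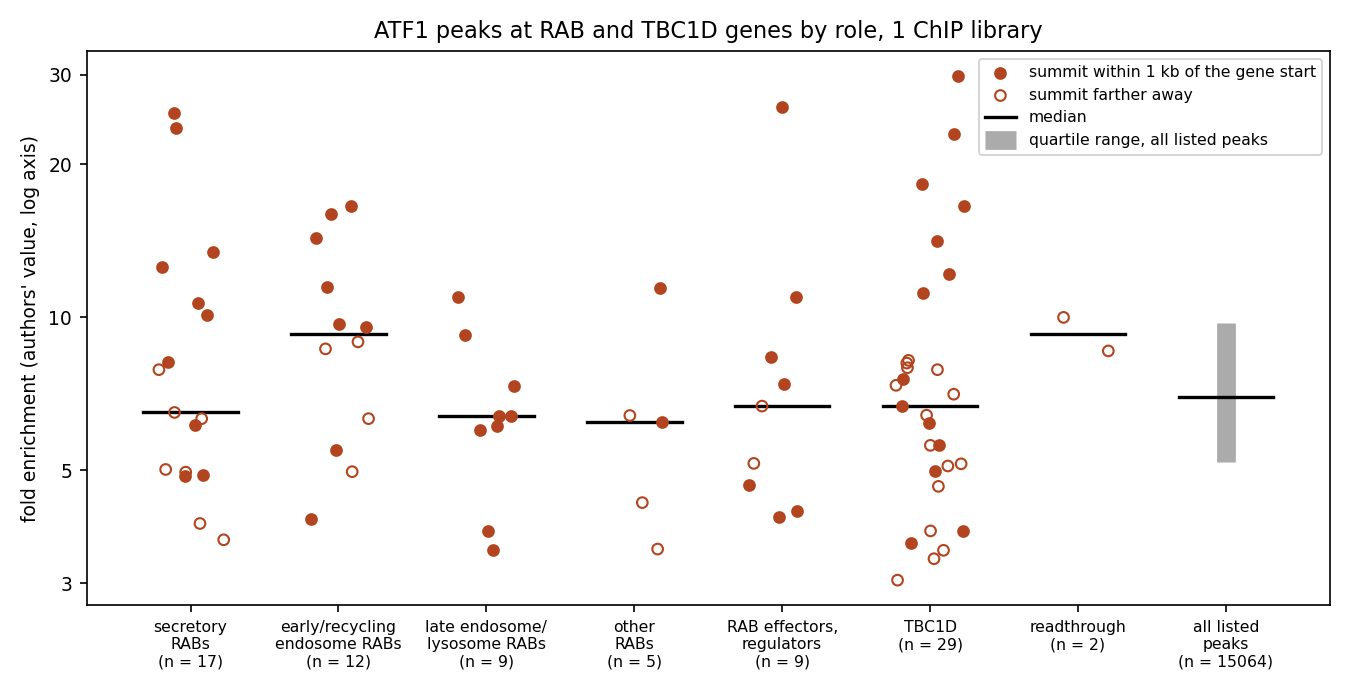
Fold enrichment of each member's peak (vertical log axis) by role, with filled points for summits within 1 kb of the gene's start, open points for summits farther away and black lines for medians; the grey bar is the quartile range of all 15064 listed peaks. The medians by role lie between 6.23 and 9.30, and 21 of the 22 members at 10-fold or more are filled points.

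The strongest member peaks were at TBC1D22A, RAB3GAP2, RAB3C, RAB1A and TBC1D22B, and all 5 were start peaks of 20-fold or more. TBC1D22A, a TBC-domain gene, had 29.86-fold enrichment and 433 tags (exact 95% Poisson interval 393 to 476) on chromosome 22 (46761897 to 46763496). Its enrichment was above that of 98.5% of all peaks, and the summit lay 92 bp upstream of the gene's start. RAB3GAP2, the non-catalytic subunit of the complex that inactivates RAB3 and loads RAB18 with GTP, had 25.90-fold and 258 tags (interval 228 to 292), with the summit 69 bp upstream. RAB3C, a RAB of regulated secretion, had 25.29-fold and 184 tags. The authors class the RAB3C peak as intronic, but the summit was 54 bp upstream of a RefSeq start and 869 bp from the gene's outer end. RAB1A, which acts in transport from the endoplasmic reticulum to the Golgi, had 23.57-fold and 643 tags, and its score was above that of 99.6% of peaks. TBC1D22B, the paralogue of TBC1D22A, had 22.97-fold and 348 tags, 51 bp upstream of its start.

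Fold enrichment and tag count ranked the members differently. The most tags were at RAB40C, a RAB with a SOCS box that joins ubiquitin ligase complexes, with 1013 tags (interval 952 to 1077) in a peak of 2976 bp and 11.41-fold. RAB8A followed with 716 tags and 10.68-fold, RAB11FIP3 with 681 tags and 10.97-fold, RAB1A with its 643 tags, and the readthrough RAB4B-EGLN2 with 616 tags and 8.59-fold. RAB40C, RAB8A, RAB11FIP3 and RAB4B-EGLN2 had peaks of 2886 to 3956 bp, against the member median of 1600 bp. Over the 83 members tags went with length (Spearman's rho 0.72) and little with fold enrichment (rho 0.20), beside 0.82 and 0.07 over all peaks. All these values come from 1 library, and longer peaks can hold more tags.

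Among the 17 listed RABs of the secretory pathway, the median was 6.50-fold and 6 reached 10-fold. Besides RAB3C and RAB1A, these were RAB6A, a Golgi RAB (13.44-fold, 565 tags), RAB18, a RAB of lipid droplets and the endoplasmic reticulum (12.57-fold, 100 tags), RAB8A, which drives polarised exocytosis (10.68-fold, 716 tags), and RAB27B, a RAB of secretory granules (10.11-fold, 137 tags). RAB10, which carries glucose transporter vesicles to the surface, was low at 4.90-fold despite 295 tags. RAB2A, of early Golgi traffic, had 8.18-fold and 436 tags, and its paralogue RAB2B 6.13-fold and 165 tags. The peaks of RAB3B (21 tags) and RAB6B (22 tags) were among those with the fewest tags, and both lay inside the gene, 41062 bp and 57815 bp from the nearest start. RAB33B had 6.50-fold and 331 tags, RAB26 4.87-fold and 494 tags, RAB37 3.93-fold and 87 tags, and RAB3D 4.96-fold and 33 tags.

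The 12 listed RABs of early and recycling endosomes had a median of 9.26-fold, and 4 reached 10-fold. RAB21, which handles integrin uptake, had 16.55-fold and 430 tags. RAB5A, the main RAB of early endosomes, had 15.96-fold and 446 tags, with the summit 2 bp from its start. RAB11A, the RAB of recycling endosomes, had 14.34-fold and 152 tags, and its close relative RAB11B 11.46-fold and 537 tags. Just under 10-fold were RAB14 (9.70-fold, 348 tags) and RAB22A (9.56-fold, 273 tags), whereas RAB5B had 5.48-fold and RAB31 4.01-fold. RAB15 had the fewest tags of all members, 19 (interval 11.4 to 29.7), in a peak of 675 bp. RAB20 had 8.95-fold and 41 tags, RAB4B 8.67-fold and RAB35 4.97-fold, all away from their starts.

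All 9 listed RABs of late endosomes, lysosomes and related organelles had a start peak, beside 52.2% of all listed peaks with the summit at the start of the gene they are named for and 64.7% of peaks named for protein-coding genes. Counted over all family genes of a role, start peaks were present at 9 of 13 of these RABs (69.2%), 11 of 16 of early and recycling endosomes (68.8%) and 15 of 23 of the secretory pathway (65.2%). The median of the 9 was 6.39-fold, and among them only RAB36 reached 10-fold (10.98-fold, 246 tags). RAB24, linked to autophagy, had 9.22-fold, and RAB7A, the main RAB of late endosomes, had 6.10-fold with 319 tags. RAB9A, which returns receptors to the Golgi, had 6.39-fold and RAB9B 5.99-fold. RAB32, of lysosome-related organelles, had 3.79-fold, RAB12 3.48-fold, RAB29 6.41-fold and RAB39A 7.34-fold. Of the 5 other listed RABs, RAB40C was the strongest and RAB33A the weakest, with 3.50-fold and 92 tags. RAB44, RAB42 and RAB40B lay between, at 6.41-fold, 6.23-fold and 4.32-fold.

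Among the RAB-named genes that are not GTPases, RAB3GAP2 and RAB11FIP3 stood above 10-fold. RAB11FIP3, an adaptor that links RAB11 vesicles to cytokinesis, had the only full CRE palindrome of this group of members. The other RAB11 adaptors had lower enrichment, with 6.69-fold at RAB11FIP5, 4.68-fold at RAB11FIP1, 4.15-fold at RAB11FIP2 and 4.04-fold at RAB11FIP4. RAB3GAP1, the catalytic partner of RAB3GAP2, had 8.36-fold and 62 tags (interval 47.5 to 79.5), well under the 258 tags of RAB3GAP2. RAB3IP, the exchange factor known as Rabin8 that activates RAB8, had 7.39-fold and 461 tags, and RAB3IL1, a related exchange factor, 5.16-fold and 214 tags.

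The 29 listed TBC1D genes had a median of 6.69-fold, and 7 reached 10-fold, all with start peaks. After TBC1D22A and TBC1D22B came TBC1D19 (18.29-fold, 125 tags), TBC1D23, which captures endosome-derived vesicles at the Golgi (16.53-fold, 303 tags), TBC1D32, a gene needed for cilia (14.12-fold, 233 tags), TBC1D7, a subunit of the TSC complex that restrains mTORC1 (12.15-fold, 183 tags), and TBC1D13 (11.15-fold, 217 tags). TBC1D20, which inactivates RAB1 and RAB18, had 7.55-fold and 312 tags. TBC1D15, which inactivates RAB7, had 6.19-fold and 50 tags. TBC1D14, which acts in autophagy, and TBC1D12 had start peaks with many tags and low enrichment, 368 tags at 3.60-fold and 455 tags at 3.79-fold. TBC1D25 (6.69-fold), TBC1D31 (5.62-fold) and TBC1D30 (4.98-fold) also had start peaks. Away from their starts lay the peaks of TBC1D5 (8.13-fold), TBC1D8, TBC1D21, TBC1D10A, TBC1D2B, TBC1D9B, TBC1D24 and TBC1D17 (3.80-fold), with 28 to 180 tags. The insulin-regulated TBC1D4 and its paralogue TBC1D1 had 5.60-fold and 4.65-fold, in exonic peaks 78715 bp and 86240 bp from the nearest end or start used for the gene. TBC1D9 had the lowest enrichment of all members, 3.04-fold, close to the table's minimum of 3, yet 221 tags. The next lowest were TBC1D10B (3.35-fold), TBC1D10C and RAB12 (3.48-fold each), and RAB33A.

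By the location of the summit, 29 of the 43 listed RAB GTPases had their named peak at the start of the gene (67.4%, interval 51.5 to 80.9%), as did 14 of the 29 TBC1D genes (48.3%, interval 29.4 to 67.5%). The intervals overlap, and no test of the difference was run. Over all members the count was 50 of 83 (60.2%), beside 52.2% of all peaks and 64.7% of peaks named for protein-coding genes. The 33 members with the summit elsewhere had a median of 66 tags and 6.32-fold, against 252.5 tags and 8.27-fold for the 50 at a start. Of these 33 members, 20 had fewer than 100 tags, as did 5 of the 50 at a start. Where outer ends stood in for the start, a start inside the gene's span can be missed. RAB33B, with 331 tags, was counted as elsewhere at 15466 bp from an outer end. Yet its peak (139452957 to 139454807) spans the start coordinate that the authors give for the gene, 139453232. The same contrast held in the table as a whole, with medians of 69 and 243 tags.

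For 41 of these 50 members RefSeq gave the position of the start. Their summits were all within 262 bp of it, although 1 kb was allowed, at a median distance of 67 bp (quartiles 40 and 131 bp), beside 88 bp (quartiles 38 and 197 bp) over all such peaks. Of the members' summits, 28 lay upstream and 13 at or downstream of the start, so that 68.3% were upstream, beside 58.2% over all such peaks. Within 200 bp of a start lay 38 of the 63 members with a known start (60.3%), beside 48.0% of all peaks with one. The values over all peaks include peaks named for non-coding genes, whereas 82 of the 83 members are protein-coding. The matching distances over protein-coding names alone were not computed. Among members of at least 10-fold, 21 of 22 were start peaks, beside 72.1% of all peaks of that strength and 85.5% of those named for protein-coding genes. The exception was the readthrough TBC1D7-LOC100130357, at 10.00-fold with 32 tags.

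**Figure D2:**
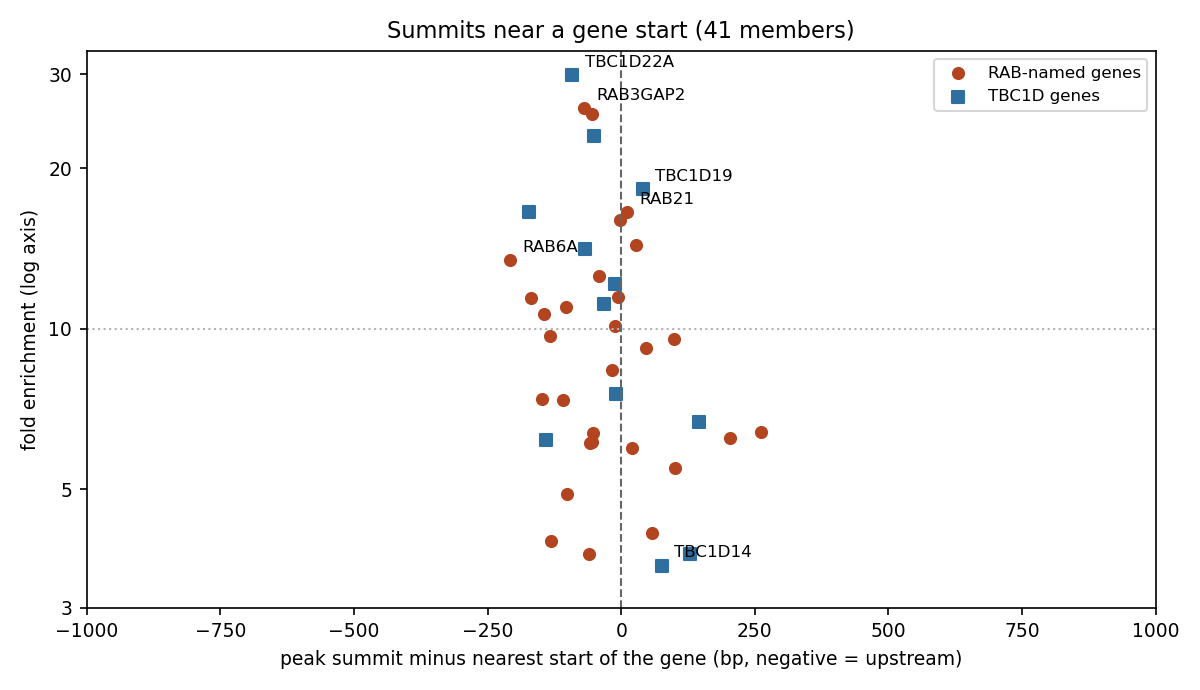
Distance of the peak summit from the nearest RefSeq start of the gene (horizontal axis, bp, negative upstream) against fold enrichment (vertical log axis) for the 41 members within 1 kb, with circles for RAB-named and squares for TBC1D genes. All points lie within 262 bp of the start, and those above the dotted line at 10-fold are mostly on its upstream side (16 of 19, 84.2%, beside 66.8% over all peaks of that strength).

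Several RAB genes that were not listed, or whose named peak lay elsewhere, had a peak at their start under another name. A start peak only under another name was found at 13 of the 118 family genes (11.0%, interval 5.998 to 18.1%), beside 8.91% of all protein-coding genes, a share near the background. Of the 36 family genes not listed, 6 had a start peak of any strength. The matching share over all unlisted protein-coding genes was not computed, so whether this count is unusual is unknown. RAB8B, the paralogue of RAB8A, had a peak of 22.58-fold and 397 tags named for LOC101928972, with the summit 166 bp from its start. RAB5C, an early endosome RAB, had 21.79-fold and 191 tags under LOC105371781, at 102 bp. RAB5IF, which is not a GTPase, had 18.82-fold and 498 tags under the readthrough name TGIF2-C20orf24. RAB28 (8.73-fold, 492 tags), RAB1B (8.44-fold, 472 tags) and RAB30 (5.25-fold, 34 tags) were the others.

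Another 7 listed family genes had their own named peak elsewhere and a peak of another name at the start. RAB27A, the RAB of melanosome and granule secretion, had a named peak of 3.65-fold and 215 tags, while the peak 35 bp from a start of RAB27A was named for PIGB and had 15.61-fold with 66 tags. RAB4B, of rapid recycling, had 8.67-fold and 54 tags inside the gene, and 14.68-fold with 291 tags at its start under MIA-RAB4B. RAB3A, the synaptic vesicle RAB, had 5.02-fold and 69 tags near its far end, and 12.88-fold with 632 tags at its start under LOC102725254. The remaining 4 were RAB15, TBC1D10B, TBC1D16 and the readthrough TBC1D7-LOC100130357, with start peaks of 3.60-fold to 12.15-fold. The table has 1 line per gene name, so the fold enrichment printed beside a name is not always that of the promoter.

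The other 30 unlisted genes had no start peak in the table. They include the 11 copies of TBC1D3 in RefSeq, on chromosome 17, of which 0 had a listed peak (interval 0 to 28.5%). These copies are nearly identical, and the handling of reads that fit several copies is not stated, so their absence is uncertain. The unlisted genes without a start peak also include RAB25, the epithelial relative of RAB11, and RAB4A, RAB13, RAB17 and RAB23. The promoter of RAB25 holds a full CRE palindrome 62 bp before the start. Absence from the table does not show absence of binding, since the depth is unknown.

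Some paralogues were close in enrichment and others were not. Close values were found at RAB9A and RAB9B (6.39-fold and 5.99-fold) and at TBC1D2 and TBC1D2B (6.42-fold and 7.06-fold). The peaks of TBC1D2 and TBC1D2B had only 33 and 52 tags and lay away from their starts. RAB2A had 8.18-fold and 436 tags, against 6.13-fold and 165 tags at RAB2B. TBC1D22A and TBC1D22B both exceeded 20-fold, and RAB11A and RAB11B both exceeded 10-fold. RAB1A had 23.57-fold at its start, against 8.44-fold at the start of RAB1B. RAB5A had 15.96-fold and RAB5C 21.79-fold at their starts, against 5.48-fold at RAB5B, where 142 tags lay. RAB3GAP2 had 25.90-fold, against 8.36-fold at RAB3GAP1. RAB40C had 11.41-fold, against 4.32-fold at RAB40B, whose summit was 40141 bp from its start. In the TBC1D1, TBC1D2, TBC1D8, TBC1D9, TBC1D10, RAB4 and RAB33 groups no listed gene's named peak was a start peak. Some of these, among them RAB33B, were placed by outer ends. These differences come from single peaks of 1 library, so no error beyond the counting of tags can be given.

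**Figure D3:**
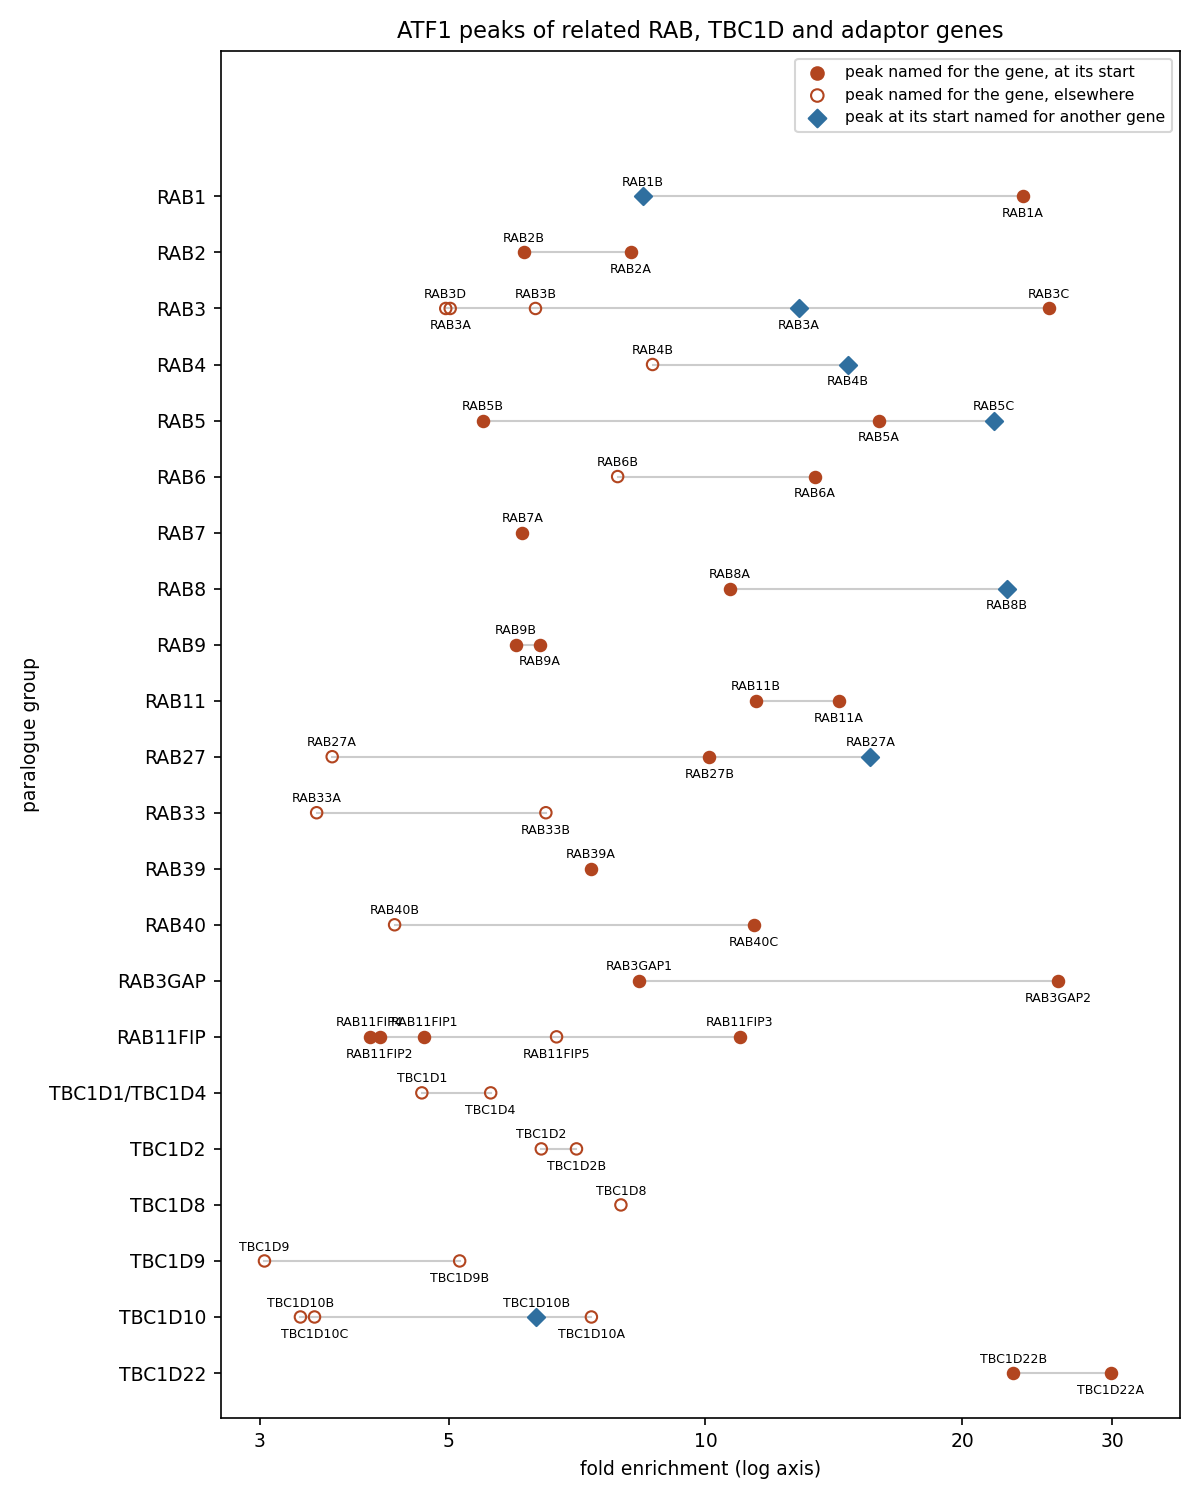
Fold enrichment (horizontal log axis) of the peaks of related genes, 1 paralogue group per row, with filled circles for peaks named for the gene at its start, open circles for peaks named for the gene elsewhere and diamonds for peaks at its start named for another gene. Diamonds for RAB8B, RAB5C, RAB27A, RAB4B and RAB3A lie between 12.88 and 22.58, to the right of 10-fold. Those for RAB1B (8.44) and TBC1D10B (6.33) lie to the left of it.

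Some start peaks lay in promoters shared with a neighbour. Of the 50 members with a start peak, 7 had the summit within 1 kb of another protein-coding gene's start or outer end as well (14.0%), beside 13.3% of all start peaks. Among them were TBC1D22B with TMEM217 and TMEM217B, RAB5A with EFHB, RAB14 with GSN, RAB24 with PRELID1, RAB2B with TOX4, and TBC1D7 with its own readthrough. The peak named for RAB4B-EGLN2 was at EGLN2, a prolyl hydroxylase gene, 20914 bp from the readthrough's start. The peak named for RAB35 was within 1 kb of an end of BICDL1. When starts of all gene classes were counted, 13 of the 41 members with a known start had a start on the opposite strand within 1 kb of the summit (31.7%, interval 18.1 to 48.1%), beside 25.8% of all start peaks. At TBC1D22A this partner was TBC1D22A-DT, whose start is 122 bp away, and at RAB24 and PRELID1 the starts are 80 bp apart. A peak between such starts cannot be given to 1 of the genes.

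For each CRE match searched, the interval of the members' share included the share of all protein-coding genes. Promoter windows were found for 63 of the 83 members, by gene ID. The palindrome TGACGTCA, which reads the same on both strands, was in the windows of 2 of them (3.17%, interval 0.387 to 11.0%), beside 3.00% of all protein-coding genes with a window. Among genes with a start peak the share was 2 of 41 members (4.88%), beside 4.2% of all. Counted by window, the palindrome was in 2.30% of 87 member windows, beside 1.85% of all 35116 windows. The variants TGACGCAA and TTGCGTCA were searched too, and 1 member held one, RAB7A with TGACGCAA 109 bp before its start (1.59%, beside 0.898% of protein-coding genes). The core, TGACG or CGTCA, lies within every full palindrome. It was in windows of 29 of the 63 members (46.0%, interval 33.4 to 59.1%), beside 34.5% of protein-coding genes. Counted by window, it was in 37.9% of the member windows, beside 24.6% of all windows.

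Among members whose named peak was a start peak of at least 10-fold, 12 of 19 had the core (63.2%, interval 38.4 to 83.7%). The share was 61.2% of all protein-coding genes with such a peak. Under 10-fold the core was in 10 of 22 members (45.5%, interval 24.4 to 67.8%), beside 34.3%. Not among the 19 are RAB3A, RAB4B, RAB27A and TBC1D7-LOC100130357, whose start peaks of at least 10-fold carry another gene's name. The palindrome with up to 1 mismatch was in 6 of the 19 stronger members (31.6%, interval 12.6 to 56.6%), beside 27.8% of all genes of that kind, and in 0 of the 22 weaker ones, beside 10.9%. The 6 genes were RAB11FIP3, TBC1D32, TBC1D22B, TBC1D23, RAB6A and TBC1D7. With 19 and 22 members the intervals are wide, and no test was run. Of 43 family genes with a window and no start peak under any name, 19 held the core (44.2%, interval 29.08 to 60.12%). The share was 25.15% of protein-coding genes without a start peak. The palindrome with up to 1 mismatch was in 17 of the 43 (39.5%, interval 24.98 to 55.59%), beside 13.1%. Among the 17 are copies of TBC1D3, nearly identical genes whose windows held TGACCTCA. Neither match was confined to family genes with a start peak.

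**Figure D4:**
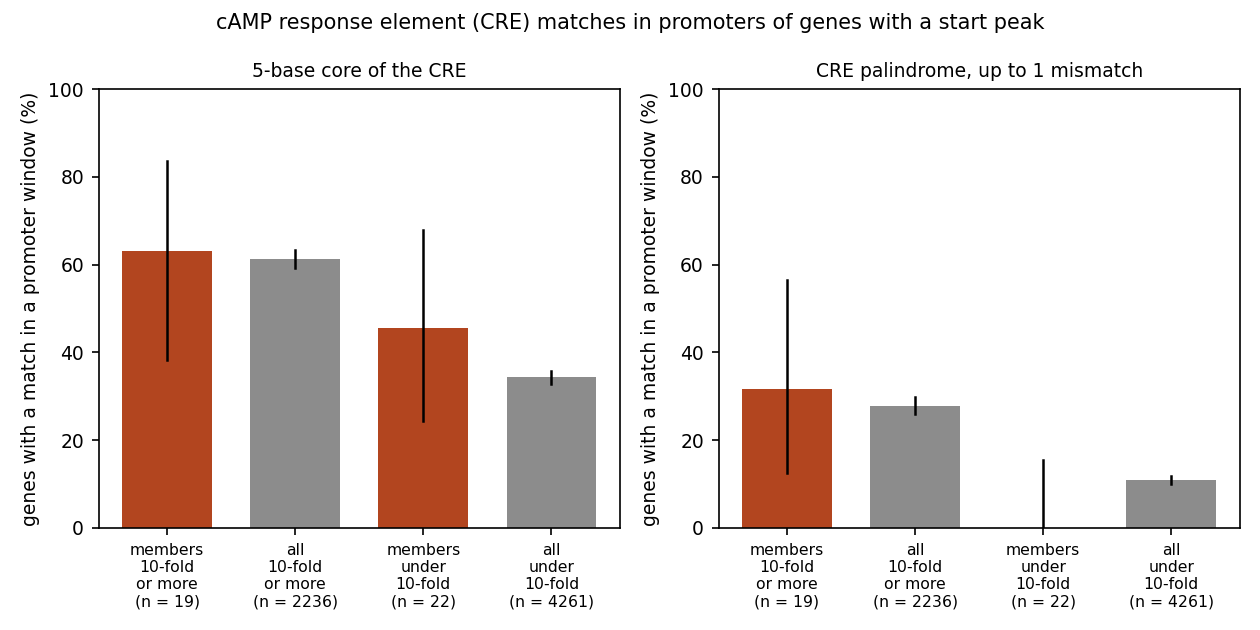
Percentage of genes with a start peak under their own name whose promoter windows hold the 5-base CRE core (left) or the CRE palindrome with up to 1 mismatch (right), for members (red) beside all protein-coding genes (grey), by fold enrichment; vertical lines are exact 95% binomial intervals. Members at 10-fold or more stand at 63.2% and 31.6%, close to the grey bars at 61.2% and 27.8%. Genes without a start peak are not shown.

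The printed matches lay close to the summits in most cases. The summit was 35 bp from the palindrome of RAB11FIP3 and 26 bp from that of RAB5IF. At TBC1D32 it was 228 bp away, and a core match in a window of another start of that gene lay 45 bp from it. The matches with 1 mismatch were 7 bp from the summit at TBC1D7, 25 bp at RAB6A, 57 bp at TBC1D22B and 189 bp at TBC1D23. Core matches lay 2 bp from the summit at RAB8B, 10 bp at RAB5A, 12 bp at RAB21, 26 bp at TBC1D22A and 49 bp at RAB8A. Over the 22 members with a start peak and a core match, the nearest core was a median of 47 bp from the summit, beside 69 bp over 2830 protein-coding genes. The strong peaks of RAB3GAP2, RAB3C, TBC1D19, RAB11A, RAB18, TBC1D13 and TBC1D7 had no core in their windows, which says only that these letters are not in those 300 bases. Chromatin was sheared to 200 to 400 bp, so a summit places binding only roughly.

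Genes of the remaining steps of the RAB cycle were also listed. A list of 78 genes outside the naming rule was used, of which 62 were listed and 47 had a start peak (60.3%, interval 48.5 to 71.2%), beside 48.2% of all protein-coding genes. The listed genes had a median of 6.27-fold, and 8 of 62 reached 10-fold (12.9%, beside 23.9% of all peaks). The strongest were RABL3, a RAB-like GTPase (25.03-fold, 360 tags), and SYTL3, a synaptotagmin-like RAB27 effector (17.47-fold, 201 tags, not at a start). RABGEF1, the exchange factor of RAB5, had 17.41-fold and 407 tags, and EEA1, the RAB5 effector that tethers early endosomes, had 16.38-fold and 528 tags. RABGGTA, the alpha subunit of the enzyme that prenylates RABs, had 15.42-fold and 278 tags. By function, 8 of 10 other TBC-domain genes, 6 of 8 prenylation and extraction genes, 18 of 29 exchange factors and 15 of 31 effectors, RAB-like GTPases and other partners had a start peak. RAB5A, its exchange factor RABGEF1 and its effector EEA1 all had start peaks above 15-fold.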

How the data were processed

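Per the labels' protocols, HCT116 cells were fixed with 1% formaldehyde, chromatin was sheared to 200 to 400 bp, and 5 µg of antibody was used. The submitters' processing notes name the build hg38 and the tools CASAVA, Bowtie2 and bedtools. Which peak caller, control sample and annotation were used is not stated there. The deposited tags are whole-number counts per peak, the fold enrichment in the deposited table is a ratio over an unspecified background, and the basis of the deposited score is not stated. All 3 are the authors' values and were used only to describe peaks within the list. A further 1 line without a position was left out.

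Gene names were matched to RefSeq (GRCh38.p14), 13441 by current symbol and 700 by an older name (93.9% of 15064). Starts came from RefSeq promoter windows for 15813 of 19974 protein-coding genes, and outer ends stood in for the rest. Intervals are exact 95% binomial (Clopper-Pearson) or Poisson. The matching of summits and motifs was tested on simulated data. Named genes are the 12 members highest and 5 lowest in fold enrichment, the 5 highest in tags, those with a CRE palindrome or a shared start, textbook RABs and the 5 strongest genes of the outside list. Other names, among them paralogues and genes with a peak under another name, were added after their values were seen. Members, lists and roles were chosen with earlier results of these data known. Python 3.11.15, numpy 2.4.6, pandas 2.3.3, scipy 1.17.1 and matplotlib 3.10.9 were used.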

Additional observations from a re-analysis of the deposited data

How the results depend on the processing

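Of 36 alternative values, 21 stayed within the interval of the reported value and 15 moved outside it. Settings with another fold threshold or another motif measure a different quantity, so their moves do not show how stable a result is. Beyond this and the fewer peaks or genes that a setting leaves, the cause was not tested. With only the 7532 peaks at or above the median score, 33.9% of the family was listed (32.6% of all protein-coding genes), 39.8% had a start peak (34.9%), the members' median was 10.1-fold (9.06 over all peaks) and 0% of member peaks were downstream. With the 1507 peaks of highest score, 10.2% of the family had a start peak (8.25%). Counting only peaks named for the gene gave 42.4% (39.3%), and leaving out multi-copy genes gave 78.8% listed (60.8%). The share past the fold threshold was 38.6% at 8-fold (38.0%) and 10.8% at 15-fold (9.78%). With start peaks only, the members' medians were 8.27-fold (7.62), 252.5 tags (243) and 150 tags per kb (134), and the median of TBC1D genes was 9.35-fold. The core of the CRE was in 46.0% of member promoters (34.5%), and the palindrome with up to 1 mismatch in 15.9% (14.9%). The settings chosen after seeing the data were outer ends for every gene, genes with a RefSeq start only, peak classes above the median score, and other windows for RAB, TBC1D and outside genes. No paired analysis was possible because there is 1 library per group. The depth of the library is unknown.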

Other observations

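Peaks were also listed for the 4 names left out. TBC1D27, a pseudogene in RefSeq, had 8.03-fold and 40 tags. TBC1D3P5, a pseudogene of the TBC1D3 cluster, had 6.69-fold and 38 tags, and TBC1D3P1-DHX40P1 had 6.42-fold and 129 tags. RAB30-AS1, now RAB30-DT, had 5.25-fold and 34 tags. The value of TBC1D3 pseudogenes is uncertain for the same reason as that of the TBC1D3 copies.

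Inside the bodies of 8 member genes the table lists 9 further peaks under other names. The strongest lay within the RefSeq body of RAB33A and was named for AIFM1, which encodes a mitochondrial flavoprotein, with 19.18-fold and 69 tags, against 3.50-fold and 92 tags for the peak named for RAB33A. The 1 inside TBC1D22A, named for LPEQ6126, had 8.67-fold and 163 tags, against 29.86-fold and 433 tags at the start of TBC1D22A.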
